A study of Mus musculus with 2 samples.

Results

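Germ cells with much Sycp1 and little Stra8 were described in a single-cell RNA-seq study of testes of C57BL/6 mice. Such cells are expected at leptotene, the first stage of meiotic prophase, or later. The label held for most of the control cells by Sycp3, Hormad1 and Meiob, but not by Psma8, which was mostly in the 36 cells of cluster 3. The 1 knockout cell and the 20 control cells of cluster 6, given further on, were low in Sycp3, Hormad1 and Meiob. A further 19 control cells, 15 of them in cluster 1, had no more Sycp3 than the highest cell of cluster 6, 5.597 UMIs per 10000. They were chosen by their own counts of unique molecular identifiers (UMIs), so the genes of the rule are a description and not a finding. A barcode qualified with at least 1000 UMIs, 500 genes and at most 20% of UMIs from mitochondrially encoded genes. It also needed at least 3 UMIs of the germ cell genes Ddx4 and Dazl together and, per 10000 UMIs, at least 20 of Sycp1, under 10 of Stra8 and under 10 of the Sertoli cell genes Aard, Cst9, Cst12 and Sox9 together. The knockout library held 1 such cell among 332 germ cells and 10864 cells that passed quality. The control library held 268 among 3611 germ cells and 11232 cells that passed quality.

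The study has 1 library per genotype, from mice 13 days old. Knockout mice had 1 floxed and 1 deleted Psma7 allele and Stra8-Cre as a knock-in (Psma7 F/-;Stra8-Cre KI/+), whereas control mice had 1 floxed allele beside a wild-type one (Psma7 F/+), with no Cre named in the label. Psma7 encodes the α4 subunit of the 20S proteasome, and Stra8-Cre is active in germ cells. Since the Cre allele is a knock-in under the name of Stra8, the Stra8 criterion need not read alike in both genotypes. How many animals entered each library and which exons are floxed is not given in the sources used here. With 1 library per genotype, and with cells that are not replicates, no test was made. The classes were cut from the same counts, so the levels set side by side are a description. Intervals are exact 95% intervals that cover counting error only.

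In leptotene, each chromosome is organised along a protein axis of cohesins, SYCP2, SYCP3 and HORMAD1, and SPO11 cuts the DNA at many places. The recombinase DMC1, helped by the MEIOB and SPATA22 pair, then uses the homologous chromosome for repair. In zygotene and pachytene, SYCP1 zips the homologues together as the transverse filament of the synaptonemal complex, and in males the unpaired X and Y chromosomes are silenced. PSMA8 is the α4 subunit that replaces PSMA7 in proteasomes of spermatocytes.

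The promoters of the genes of chromosome axis, cohesin and recombination with the highest ratios in these cells, among those in the RefSeq promoter table, are shown because many of these genes were high together. Each runs 5′ to 3′ from 250 bases before to 50 bases after the gene start on GRCm38.p6, and capitals mark TCCCGC, the core of sites bound by E2F factors, or its reverse complement GCGGGA, and CACGTG, the E-box.
Rad51ap2 promoter, chr12:11455805-11456104, plus strand: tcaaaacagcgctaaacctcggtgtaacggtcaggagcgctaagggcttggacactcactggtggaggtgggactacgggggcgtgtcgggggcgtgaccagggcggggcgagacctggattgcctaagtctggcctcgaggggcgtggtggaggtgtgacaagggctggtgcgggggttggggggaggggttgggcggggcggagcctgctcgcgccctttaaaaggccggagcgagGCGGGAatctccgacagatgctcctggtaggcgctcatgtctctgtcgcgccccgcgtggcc
Spata22 promoter, chr11:73329491-73329790, plus strand: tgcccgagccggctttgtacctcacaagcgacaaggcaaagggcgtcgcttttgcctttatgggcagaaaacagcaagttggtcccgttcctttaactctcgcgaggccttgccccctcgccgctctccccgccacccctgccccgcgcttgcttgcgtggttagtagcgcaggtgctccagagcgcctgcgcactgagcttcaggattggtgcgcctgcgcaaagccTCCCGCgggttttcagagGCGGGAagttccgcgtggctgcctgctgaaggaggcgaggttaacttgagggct
Sycp3 promoter, chr10:88459337-88459636, plus strand: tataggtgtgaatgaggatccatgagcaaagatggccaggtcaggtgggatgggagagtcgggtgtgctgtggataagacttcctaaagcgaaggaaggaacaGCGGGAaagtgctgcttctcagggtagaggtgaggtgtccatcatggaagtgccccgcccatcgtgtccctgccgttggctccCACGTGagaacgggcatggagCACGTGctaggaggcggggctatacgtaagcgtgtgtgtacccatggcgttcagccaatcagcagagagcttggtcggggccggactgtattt
Hfm1 promoter, chr5:106925841-106926140, minus strand: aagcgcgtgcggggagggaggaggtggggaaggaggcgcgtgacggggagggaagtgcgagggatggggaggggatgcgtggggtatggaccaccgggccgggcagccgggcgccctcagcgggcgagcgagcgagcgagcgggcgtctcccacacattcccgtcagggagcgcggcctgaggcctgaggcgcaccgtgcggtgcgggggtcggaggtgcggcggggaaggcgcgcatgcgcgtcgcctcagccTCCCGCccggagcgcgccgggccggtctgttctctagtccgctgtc

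Among genes of the 6 lists on axis, meiotic cohesin, break formation, strand exchange, crossover and telomere attachment, 49 of 58 had a promoter in the table, and 30 of those (61.2%) held TCCCGC on either strand. Over all 27025 promoters of the table the share was 20.0%, over the 13279 of measured genes 33.4%, and over the 944 of genes at least 2-fold higher in the Sycp1-high cells 29.1%. The share was 90.9% (10 of 11) for strand exchange genes and 2 of 8 promoters of break formation genes held it. CACGTG stood in 20.4% of the 49 promoters, against 7.24% of all promoters and 9.84% of those of measured genes. The Sycp3 promoter held CACGTG at 2 places. A match describes letters in these windows and says nothing of binding.

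The knockout count was 1 cell, 0.301% of its germ cells (0.00763 to 1.67), against 7.42% (6.59 to 8.33) in the control. The germ cells of the knockout library were 329 cells low in both genes, 2 cells with Stra8 at 10 or more per 10000 and the 1 Sycp1-high cell. The control had 489 Stra8-high germ cells and 2854 low in both genes. The knockout library had 0 germ cells with Sycp1 from 15 to 20 per 10000, just under the threshold, and the control had 178. In the plot of single germ cells, the control cells form a band that runs from high Stra8 into high Sycp1, and the knockout cells, but for 3, lie below both thresholds.

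**Figure D1:**
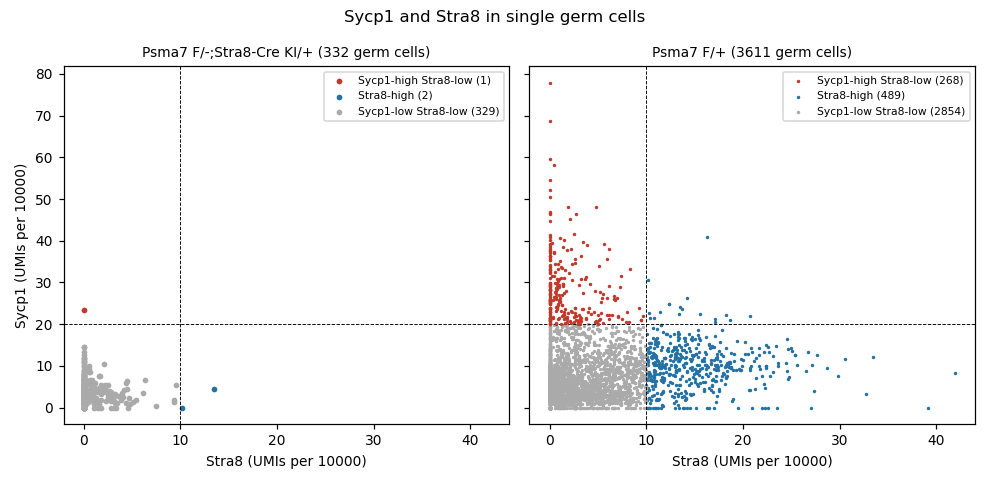
Sycp1 against Stra8 in UMIs per 10000, 1 point per germ cell, for the knockout (left, 332 cells) and control library (right, 3611 cells). Dashed lines mark the thresholds of 20 and 10, and the upper left field holds 1 knockout and 268 control cells.

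The single knockout cell had 19632 UMIs and 6279 genes, with 0.698% of UMIs from mitochondrially encoded genes. It met the rule through 46 UMIs of Sycp1, which is 23.4 per 10000. In CPM, the UMIs of a gene scaled to a fixed total per cell or class, its 6 UMIs of Sycp3 are 306 CPM (112 to 665), against 2878 CPM in the control Sycp1-high cells. Its 3 UMIs of Hormad1 are 153 CPM (31.5 to 447) against 978 CPM, its 1 UMI of Meiob 50.9 CPM (1.29 to 284) against 342 CPM, and its 2 UMIs of Dmc1 102 CPM (12.3 to 368) against 896 CPM. The intervals of these genes lay below the control levels. Those of Psma8, 1 UMI or 50.9 CPM (1.29 to 284) against 52.8 CPM, of Spo11, 2 UMIs or 102 CPM (12.3 to 368) against 163 CPM, and of the meiotic entry gene Fbxo47, 8 UMIs or 407 CPM (176 to 803) against 472 CPM, held them. Single control cells went down to 0 in Sycp3, Hormad1, Meiob and Dmc1, so the knockout cell lay within their range. Per 10000 UMIs it had 3.06, 1.53, 0.509 and 1.02 of these, below the lower quartiles of 18.3, 5.66, 0.997 and 4.80 in control cells. It had 0 UMIs of Stra8, Meioc and Prdm9 and 32 of Tex15, a germ cell gene. Of 19 genes of undifferentiated spermatogonia it had 0 UMIs of 9, 1 UMI of 6 and more of 4, at most 6 of Egr4. Of 12 genes of differentiating spermatogonia it had 0 UMIs of 7, Kit among them, 1 UMI of 2 and more of 3, at most 12 of Dmrt1. Of Psma7 it had 2 UMIs. The nuclear RNA Malat1 stood at 7641 CPM in it, above the range of 720.3 to 2879 CPM over the 7 clusters of control cells, which are sums and not single cells. Its barcode was not a cell of the control library.

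The 268 control cells held 4359474 UMIs, the median cell having 14323 UMIs and 4422.5 detected genes, close to the medians of 14114 UMIs in Stra8-high and 14534.5 in low germ cells. The 112 cells with Sycp1 between 20 and 25 per 10000 had 2596 CPM of Sycp3, 285 of Meiob and 35.7 of Psma7, and the 178 cells between 15 and 20, just outside, had 2145, 194 and 65.9 CPM. A further 36 control cells and 1 knockout cell met every criterion but that on Ddx4 and Dazl. Of the 268 cells, 98 had 0 UMIs of Stra8. Across the libraries 29 cell barcodes were shared, 1 of them that of a control Sycp1-high cell. Scrublet marked 6 of the 268 as doublets.

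The given markers were Sycp1, Sycp3, Hormad1, Meiob and Psma8, and 4 of them were at least 2-fold higher than in all other germ cells of the control. Of all 18188 genes measured in that comparison, 7.48% were at least 2-fold higher in the Sycp1-high cells and 42.2% at least 2-fold lower. The median gene stood at -0.68 on the log2 scale. Relative to the median gene the shares were 20.6% and 28.6%. Sycp1, used by the rule, ranged from 20.0 to 77.9 per 10000 with a median of 26.2. Sycp3 (chr10:88459569-88473236, plus strand, GENCODE M21 on GRCm38) is no gene of the rule. Its lowest cell had 0, the median cell 27.7 and the highest 77.4 UMIs per 10000, against medians of 9.37 in Stra8-high and 1.88 in low germ cells. Summed over cells, Sycp3 was at 2878 CPM (2828 to 2929) against 525 CPM in other germ cells, a log2 ratio of 2.46 (2.42 to 2.49). Hormad1 was at 978 CPM against 244 CPM. Against Stra8-high cells it was the one given marker under 2-fold. Its medians were 8.75 UMIs per 10000 in Sycp1-high and 5.84 in Stra8-high cells, with a UMI in 93.7% and 89.0% of cells. Meiob, which binds single-stranded DNA at breaks, gave the largest ratio of the markers, 342 CPM (325 to 360) against 27.5 CPM, a log2 ratio of 3.64 (3.53 to 3.74). A Meiob UMI was seen in 80.2% of the Sycp1-high cells and 36.2% of Stra8-high cells. The share was 13.2% in low germ cells and 1.03% in Sertoli-gated cells. Medians were 14323, 14114, 14534.5 and 4758 UMIs in the same order. With every cell thinned to 3000 UMIs, which left out 28 Sycp1-high cells, the shares were 54.6%, 10.6%, 4.59% and 0.389%. Sertoli-gated cells passed quality, had no UMI of Ddx4 or Dazl and reached the limit of the rule for the Sertoli cell genes. Leaving out every cell with a Ddx4 or Dazl UMI can itself lower their shares for other germ cell genes. Their shares for Meiob, and for Spo11 and Kctd19 further on, are thus no independent background level. Psma8 was the marker with the smallest ratio, 0.71 (0.50 to 0.91), and 90 of the 268 cells (33.6%) had a UMI of it, as did 35.5% of low germ cells. Its ratio was past 2-fold under some other choices, at 1.95 for the cells with 0 UMIs of Stra8, 1.65 for Sycp1 of at least 40 per 10000 and 1.39 relative to the median gene. It stayed under 2-fold in the remaining choices, from 0.71 with at least 6 UMIs of Ddx4 and Dazl to 0.97 without clusters 2 and 6, given further on.

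Genes that build the chromosome axis and synaptonemal complex were high almost as a whole. Of 11 measured, 9 were at least 2-fold higher than in other germ cells and 0 lower, with a median log2 ratio of 1.71, and the 7.48% above is the share over all genes. Sycp2, of the axis, was at 1379 CPM against 319 CPM. Syce3, of the central element of the complex, was at 450.3 CPM against 111 CPM. Six6os1, listed as 4930447C04Rik, was at 1617 CPM against 496 CPM. Trip13, the ATPase that strips HORMAD proteins from synapsed axes, was the one below 0, at 52.3 CPM against 82.9 CPM. Against the Stra8-high cells, 4 of the 11 were 2-fold higher, where 9.15% of 12259 measured genes were higher and 19.4% lower. Those 4 were Sycp3 at 1.42, Syce3 at 1.37, Sycp2 at 1.15 and the gate gene Sycp1 at 1.45.

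The meiotic cohesins split. Smc1b was at 1793 CPM against 642 CPM and Rad21l, a kleisin of meiosis, at 68.1 CPM against 31.3 CPM, both at least 2-fold higher, while Stag3 stood at 0.86. The median of the 4 meiotic cohesins was 0.99, and 0.12 over the cells with 0 UMIs of Stra8. Against Stra8-high cells 0 were 2-fold higher and Rec8 was lower, with a median of -0.03. Rec8, the other meiotic kleisin, was at 5.51 CPM (3.53 to 8.19) in the Sycp1-high cells, 39.9 CPM in Stra8-high cells and 28.7 CPM in all other germ cells, a log2 ratio of -2.35 (-3.03 to -1.80) against the last. A Rec8 UMI was seen in 7.46% of the Sycp1-high cells, 37.6% of Stra8-high cells and 14.96% of Sertoli-gated cells. Sertoli-gated cells had fewer UMIs, 4758 at the median against 14323 in Sycp1-high cells, so their share is no background level at equal depth. What part of the Rec8 UMIs is background was not tested. Of the 8 mitotic cohesin genes, the loader Nipbl was 2-fold higher at 1.45 and the kleisin Rad21 2-fold lower at -1.68.

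Of 9 genes for making double-strand breaks, 6 were at least 2-fold higher than in other germ cells and Mei1 was lower, with a median of 1.21. Of all genes, 7.48% were higher and 42.2% lower there. The median of the 9 genes was 0.04 for the cells with 0 UMIs of Stra8 and 0.05 for Sycp1 of at least 40 per 10000. Against Stra8-high cells 1 of the 9 was higher and 2 lower, with a median of 0.16, where 9.15% of all genes were higher and 19.4% lower. Spo11, the enzyme that cuts, was at 163 CPM (151 to 176) against 20.7 CPM in Stra8-high and 18.1 CPM in all other germ cells, a log2 ratio of 3.17 (3.03 to 3.31) against the last. It was seen in 72.0% of the Sycp1-high cells and 0.479% of Sertoli-gated cells. Mei1, Rec114 and Mei4 were lower than in Stra8-high cells. Mei1, needed for break formation, was at 62.6 CPM against 287 CPM in Stra8-high cells, Rec114 at 32.8 CPM against 73.9 CPM, and Mei4 at 101 CPM against 146 CPM. Prdm9, which marks the sites of breaks by methylating histone H3, was at 191 CPM against 219 CPM in Stra8-high cells, while Zcwpw1, a reader of that mark, was at 589 CPM against 398 CPM.

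Of 14 strand exchange genes, 9 were at least 2-fold higher than in other germ cells and 0 lower, with a median of 1.26, and against Stra8-high cells 3 were higher and 0 lower, with a median of 0.66. Of all genes, 7.48% were higher and 42.2% lower than in other germ cells, and 9.15% and 19.4% than in Stra8-high cells. Meiob was followed by Rad51ap2 at 2.99 and by Spata22, the partner of MEIOB, at 2.73. Rad51ap2 was at 312 CPM against 39.3 CPM and Spata22 at 88.5 CPM against 13.3 CPM. Dmc1, the recombinase of meiosis, was at 896 CPM against 273 CPM, and Hsf2bp, which brings BRCA2 to breaks, at 214 CPM against 64.4 CPM. Of 12 crossover genes 5 were 2-fold higher, led by the helicase Hfm1 at 2.19 and by Msh5 at 2.07, and 0 were lower, and against Stra8-high cells 3 were higher. Mlh3, which acts at crossovers in pachytene, stood at -0.65. Of 8 genes that tether telomeres to the nuclear envelope 5 were 2-fold higher, led by Spdya at 2.31 and Terb1 at 2.16, and Sun2 was lower at -1.21. The median of these 8 was 1.28, and 0.32 for the cells with 0 UMIs of Stra8, and against Stra8-high cells 1 was higher.

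**Figure D2:**
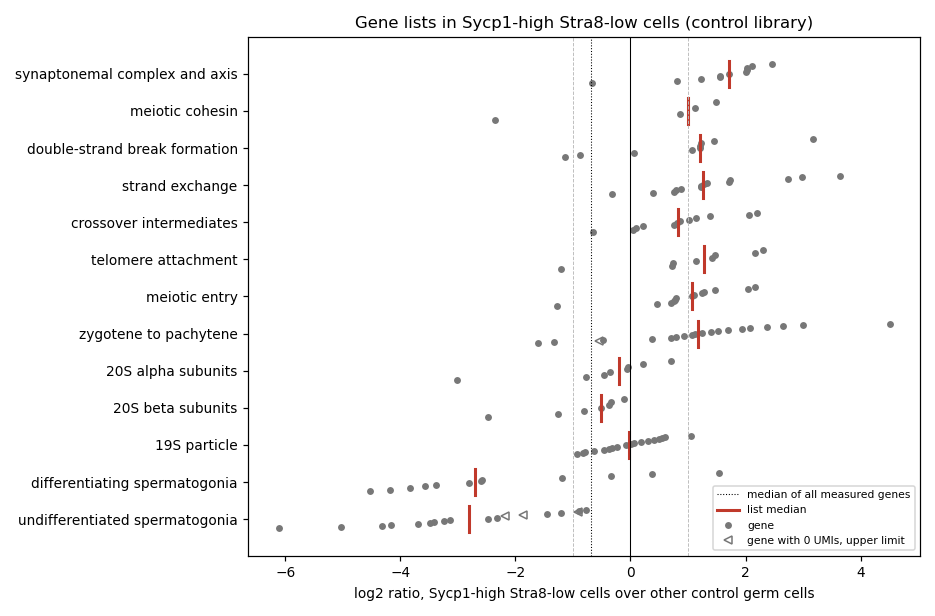
Log2 ratio of summed UMIs per total in the 268 Sycp1-high Stra8-low cells over the other 3343 germ cells of the control, 1 point per measured gene, with the list median as a red bar, open triangles for the upper limit of genes at 0 UMIs, and the median of all genes dotted. The axis and recombination lists have medians above 0, the 20S and 19S lists lie near it, and the 2 spermatogonial lists lie below -2.

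Genes of meiotic entry were high against other germ cells but close to the Stra8-high cells. Of 13 measured, 7 were at least 2-fold higher than in other germ cells, where 7.48% of all genes were. Stra8, held low by the rule, was lower. Against Stra8-high cells 1 was higher, where 9.15% of all genes were, and Stra8 was lower, with a list median of 0.20. Meioc, whose protein keeps the meiotic programme going with YTHDC2, was at 539 CPM against 509 CPM in Stra8-high cells and 227 CPM in all other germ cells. Meiosin, listed as Gm4969, the partner of STRA8, was at 106 CPM against 160.2 CPM in Stra8-high cells. Tex101 was at 1982 CPM against 1131 CPM in Stra8-high cells, and Fbxo47 at 472 CPM against 180.3 CPM.

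Genes of zygotene to pachytene had medians above 1 on the log2 scale against both classes. Of 20 measured, 12 were at least 2-fold higher than in other germ cells and 3 lower, with a median of 1.18. Against Stra8-high cells 10 of 18 were higher and 0 lower, with a median of 1.13. The shares over all genes were 7.48% higher and 42.2% lower than in other germ cells, and 9.15% and 19.4% than in Stra8-high cells. Kctd19 was at 38.3 CPM against 1.68 CPM in other germ cells, Tesmin at 294 CPM against 36.9 CPM, and Meig1 at 56.0 CPM against 8.91 CPM. These values rest on part of the cells, since a Kctd19 UMI was seen in 20.1% of the Sycp1-high cells and a Meig1 UMI in 17.2%, against 0.171% and 27.4% of Sertoli-gated cells. The Meig1 share over all 268 cells is thus lower than that of Sertoli-gated cells, which had fewer UMIs, 4758 against 14323 at the median. Whether the Meig1 UMIs of Sertoli-gated cells are their own was not tested. In cluster 3, described further on, a Meig1 UMI was seen in 80.6% of cells. Ybx3 and Tcp11 were 2-fold lower. Also lower by the fitted ratio was the cyclin Ccna1, used late in prophase, with 0 UMIs in the Sycp1-high cells, at least 1.45-fold lower with 3 UMIs over the group as the limit.

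Most genes of the spermatogonial lists were low against all other germ cells. Of 18 measured genes of undifferentiated spermatogonia, 16 were at least 2-fold lower than in other germ cells by the fitted ratio, where 42.2% of all genes were, and the list median was -3.45, or -2.80 with 3 genes at 0 UMIs set to a limit of 3 counts. Gfra1, a receptor of GDNF, was at 0.459 CPM against 39.6 CPM, and Zbtb16 at 4.36 CPM against 146 CPM. Of 12 genes of differentiating spermatogonia 9 were lower. Sohlh1 was at 3.90 CPM against 92.5 CPM, Dnmt3b at 4.13 CPM against 60.7 CPM and Crabp1 at 8.95 CPM against 165 CPM. Prss50 was 2-fold higher at 1.54, and Rhox13 stood at 0.37. Kit, the receptor that marks differentiating spermatogonia, was at 10.8 CPM against 72.7 CPM in Stra8-high cells and 114 CPM in all other germ cells. In the retinoic acid pathway 13 of 17 genes were 2-fold lower. The receptor Rarb had 0 UMIs and was at least 10.7-fold lower, counting 3 UMIs as the limit over the group. Against Stra8-high cells, 4 of 9 measured genes of undifferentiated spermatogonia were lower and 0 higher, with a median of -0.49. Of 12 genes of differentiating spermatogonia 8 were lower there, with a median of -1.71, where 19.4% of all genes were lower. Summed, 7 markers of undifferentiated spermatogonia were at 24.8 CPM in Sycp1-high, 51.1 CPM in Stra8-high and 359 CPM in low germ cells. The sum of 7 markers of differentiating spermatogonia was not low. It was 832 CPM in Sycp1-high, 1092 CPM in Stra8-high and 717 CPM in low germ cells, and 771 CPM in all other germ cells.

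S phase genes had a median of -0.17 and G2 and mitosis genes one of -0.15, above the median gene of -0.68. Within those lists members went apart. The licensing factor Cdt1 was at 5.05 CPM against 46.4 CPM and Mcm2, of the replicative helicase, at 16.1 CPM against 98.8 CPM. Aurkb, the mitotic kinase, was at 2.29 CPM against 45.4 CPM. Bub1, a kinase of the spindle checkpoint, was at 587 CPM against 175 CPM. DNA methylation genes had a median of -1.65 with 6 of 9 lower, among them Tet3 at -3.15, where 42.2% of all genes were lower. Relative to the median gene 4 of the 9 were lower, where 28.6% of all genes were. In the repressor complex PRC1.6, which holds E2F6 and MGA, E2f6 was at 5.51 CPM against 28.3 CPM, Mga at 228 CPM against 248 CPM and Pcgf6 at 75.9 CPM against 37.3 CPM. The list median of -0.69 was close to that of all genes.

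Other lists were mixed. Of 21 piRNA pathway genes 1 was at least 2-fold higher and 6 lower, with a median of -0.06. Of 20 genes of glycolysis and lactate 2 were higher and 10 lower, and of 19 p53 target genes 1 was higher and 7 lower, with medians of -1.06 and -0.81, where 42.2% of all genes were lower. Of 18 immediate-early genes, which respond to handling and stress, 8 were lower than in all other germ cells, with a median of -0.90, also near that share, while against Stra8-high cells 2 were higher and 1 lower, with a median of 0.52. Of 7 autosomal retrogenes of X-linked genes, copies known to act while the X chromosome is silent, 3 were higher and 0 lower, with a median of 0.47, and in cluster 3 of the Sycp1-high cells their median was 0.97 against the other Sycp1-high cells.

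By size of the ratio, Kctd19 (4.51), Tafa1, Rsph1 (4.25), Fsip2 (4.01), Gml (3.82) and Meiob (3.64) were highest against other germ cells, followed by Fam227b, Dnah7c, Glipr1l2, Gml2, Spo11 and Ccnb3. Gml and Gml2 are related genes next to each other, and how the authors' counting split reads between them is not known. The ratios of Tafa1 and Rsph1 rest on the 36 cells of cluster 3, described further on, which held 128 of the 129 and 417 of the 430 UMIs. Rsph1, a protein of the radial spokes of cilia and flagella, was at 98.6 CPM against 5.19 CPM, with a UMI in 14.9% of the cells and in 11.1% of Sertoli-gated cells. Ccnb3, an X-linked cyclin of early meiosis, was at 249 CPM against 28.8 CPM, with a UMI in 75.4% of them. The lowest were Hnf4aos (-6.58), Trim71 (-6.12), Bmp6 (-6.11), Gfra1 (-6.11) and Wwc1 (-5.63), with 1 to 6 UMIs each in the Sycp1-high cells. Against Stra8-high cells the highest were Tafa1 (6.61), Rsph1 (6.42), Kctd19 (5.22) and Fsip2 (5.14), on 2 to 9 UMIs in Stra8-high cells. The lowest, Gzmc and Ccl4, had their UMIs in 0.409% and 1.64% of Stra8-high cells.

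Psma7 itself was low in the control Sycp1-high cells. It was at 86.6 CPM (79.3 to 94.4) in the other germ cells of the knockout library and 86.2 CPM in its Sertoli-gated cells. In the control it was at 28.9 CPM (24.1 to 34.4) in Sycp1-high cells, 146 CPM in Stra8-high cells, 249 CPM in low germ cells and 217 CPM in Sertoli-gated cells. The knockout and control levels come from 1 library each and were not compared. Psma7 was also abundant in free RNA, the barcodes of 10 to 100 UMIs, at 145 CPM (127 to 164) in the knockout and 367 CPM (332 to 405) in the control library. The log2 ratio against other control germ cells was -3.01 (-3.28 to -2.76), and -4.34 after subtraction of free RNA at 5% of the UMIs. A Psma7 UMI was seen in 25.7% of the Sycp1-high cells, 72.2% of Stra8-high cells and 56.2% of Sertoli-gated cells. Psma8 was at 59.6 CPM (53.5 to 66.1) in knockout germ cells, and in the control at 52.8 CPM (46.2 to 60.0) in Sycp1-high, 21.8 CPM in Stra8-high, 34.1 CPM in low germ cells and 7.68 CPM in Sertoli-gated cells. The counts are of 3′ tags, and whether the tag of Psma7 lies outside the deleted part is not known, so its level in the knockout library counts transcripts of the locus and not intact ones.

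**Figure D3:**
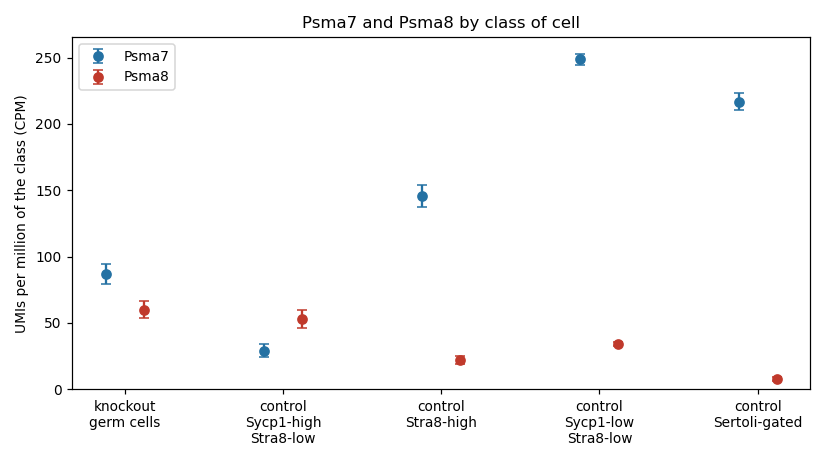
Psma7 (blue) and Psma8 (red) in CPM for 5 classes of cell, with exact 95% Poisson intervals. Psma7 is at 28.9 CPM in the control Sycp1-high Stra8-low cells, the lowest of the classes drawn, and Psma8 is at 52.8 CPM there.

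Most genes of the proteasome core and cap were within 2-fold. Among the 8 genes of the 20S α ring, Psma7 was the one past 2-fold, and the list median was -0.21. Psma4 stood at -0.76, and Psma1 at 0.23. Of 7 genes of the β ring, Psmb3 was at 51.2 CPM against 286 CPM and Psmb5, a catalytic subunit, at 79.8 CPM against 191 CPM, and the other 5 were within 2-fold. Of 18 genes of the 19S particle 0 were 2-fold lower, and Psmd6 was higher at 1.05. Of 14 activators and special subunits 7 were 2-fold lower and 1 higher, where 42.2% of all genes were lower, and 4 were lower relative to the median gene. Psme1 and Psme2 of the PA28 cap were at 10.6 CPM against 61.2 CPM and 8.95 CPM against 78.1 CPM. Psmb10 of the immunoproteasome was at 2.29 CPM against 21.7 CPM, and Psme4, the PA200 activator known from spermatogenesis, at 192 CPM against 179 CPM.

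The 268 cells were not of one kind. Clustered without the genes of the rule, they fell into 7 groups of 79, 62, 36, 35, 21, 20 and 15 cells, and the genes that lead a group are a description of how it was made. Against the other Sycp1-high cells, the share of 9170 measured genes at least 2-fold higher was 4.79% in cluster 1, 4.08% in cluster 2, 0.916% in cluster 4, 17.2% in cluster 5, 22.3% in cluster 6 and 4.92% in cluster 7. The share at least 2-fold lower was 18.0%, 3.84%, 10.8%, 20.8%, 20.4% and 18.3% in the same clusters. Cluster 1 (79 cells) was led by Traf5, Tnip2, Grk5, Bnc1 and Hykk, and it had the highest Stra8, 428 CPM, with 318 CPM of Prdm9. Cluster 4 (35 cells) was led by Rad51b, Tbc1d32, C2cd6, C79798 and Cdc25a, and had 1234 CPM of Dmc1 and 138 CPM of Stra8. Cluster 7 (15 cells) was led by Aph1c, Thyn1, Dxo, Cited1 and Zfp622, with 362 CPM of Prdm9. Cluster 5 (21 cells) had a median of 2385 UMIs, and was led by Atp5a1, Med10, Hmgn2, Atp5mpl and Lamtor5.

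Cluster 3 (36 cells) was zygotene-to-pachytene-like by 8 of 11 markers, Piwil1, Hspa2, Ldhc, Meig1, Adam2, Tbpl1, Tesmin and Clgn. It was led by Fabp9, Ccdc192, Tafa1, Pdcl2 and AC163638.2, with UMIs in 33.3%, 11.1%, 41.7%, 41.7% and 8.33% of its cells. Hspa2, a chaperone of the synaptonemal complex, was at 573 CPM (522 to 628) in it against 98.1 CPM in the other Sycp1-high cells. Meig1 was at 276 CPM against 6.46 CPM, and Adam2 at 55.0 CPM against 0.281 CPM. The 2 cells of the cluster with most UMIs held 142 of its 221 Meig1 and 27 of its 44 Adam2 UMIs, and without them the levels were 115 and 24.8 CPM, with Hspa2 at 448 CPM and Psma8 at 165 CPM. Hormad1 was at 1521 CPM against 855 CPM. Psma8 was at 196 CPM (167 to 229) against 20.5 CPM, with a UMI in 91.7% of its cells, so 157 of the 230 Psma8 UMIs of the 268 cells were in these 36. The 20.5 CPM lay below the 32.3 CPM of all other control germ cells and near the 21.8 CPM of Stra8-high cells. Psma7 was at 27.5 CPM in cluster 3 against 29.2 CPM in the other Sycp1-high cells. H2afx, the histone variant that is phosphorylated at breaks and over the sex chromosomes, was at 421 CPM against 76.1 CPM. The early genes were low there. Stra8 was at 21.2 CPM against 227 CPM, Prdm9 at 22.5 CPM against 229 CPM, Dmc1 at 272 CPM against 1037 CPM, Smc1b at 700 CPM against 2039 CPM and Syce2 at 312 CPM against 1207 CPM. Of 9 break formation genes 7 were at least 2-fold lower in this cluster, with a median of -2.31, and Spo11 was not among them, at 164 CPM against 163 CPM. Over all 9170 genes measured among the 268 cells, 14.5% were 2-fold lower in the cluster, 13.3% were higher and the median was 0.02. The 8 genes of the 20S α ring had a median of 0.84 and the zygotene to pachytene genes one of 2.03, with 12 of 15 higher.

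Cluster 6 (20 cells) goes against the label. It met the rule with 2246 CPM of Sycp1, but Sycp3 was at 230 CPM (162 to 316) against 2980 CPM in the other Sycp1-high cells, and Meiob and Rad51ap2 had 0 UMIs. Kit was at 130 CPM against 6.19 CPM, Dmrt1, a factor of spermatogonia, at 329 CPM against 15.5 CPM, and Rec8 at 62.0 CPM against 3.33 CPM. Of 7 markers of differentiating spermatogonia, 4 were at least 1.5-fold higher in it with a UMI in at least 20% of its cells. These were Kit, Sohlh1, Dmrtb1 and Esx1, and not Prss50, Rhox13 and Dnmt3b. Dmrtb1 and Esx1 also passed in cluster 3, and Esx1 in cluster 5. Summed, the 7 markers were at 720 CPM in cluster 6, the lowest of the 7 clusters, against 832 CPM over all 268 cells. The leading genes of cluster 6 were Ctnnd2, Cacna1c, Ccnd1, Syt9 and Med12l. Its 50 leading genes had a median genomic span of 193 kb, against 76.7 kb over the genes measured in it. Malat1 was at 2879 CPM, against 720.3 to 1561 CPM in the other 6 clusters, and the part of nuclear RNA in the profile was not tested.

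Cluster 2 (62 cells) was led by Igfbp7, Lama2, Socs3, Id2 and Dcn, each with a UMI in 17.7% to 19.4% of its cells. Its 4 stromal markers summed to 327 CPM and its 4 peritubular myoid markers to 130 CPM, against 36.2 to 68.2 CPM and 5.58 to 17.7 CPM in the other clusters. In all other germ cells the same sums were 358 and 105 CPM. All 6 doublets that Scrublet marked were in this cluster. Macrophage markers were at 0 but for 1 of 4, and 4 defining spermatid markers were at 0 in all 268 cells. Without clusters 2 and 6, the 186 cells left had 1380 genes at least 2-fold higher and 8104 lower than other germ cells, against 1360 and 7672 with all 268. The part of somatic RNA in the levels was not tested.

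**Figure D4:**
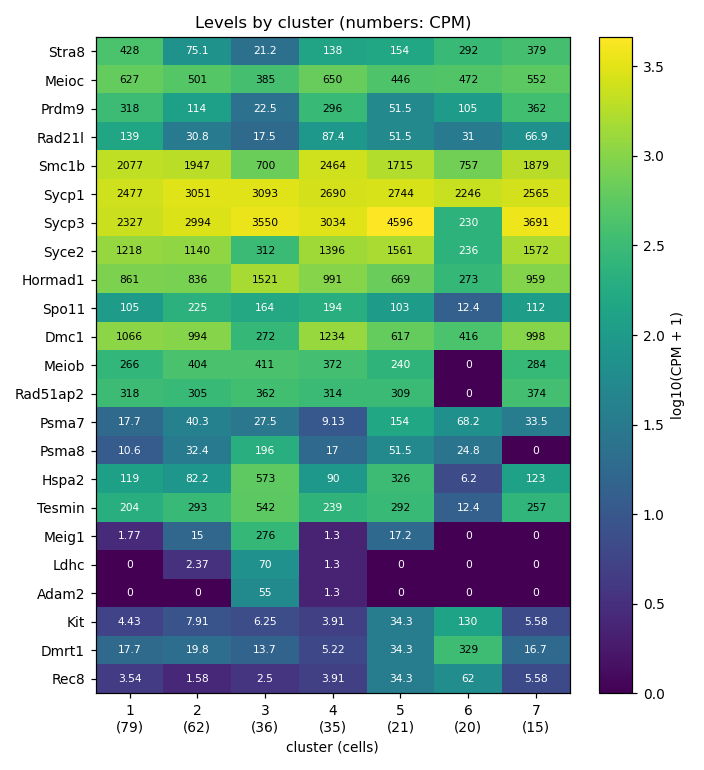
CPM of 23 named genes in the 7 clusters of control Sycp1-high Stra8-low cells, with colour on a log10(CPM + 1) scale and the number of cells under each cluster. Psma8, Hspa2 and Meig1 are highest in cluster 3, and Sycp3 and Meiob are lowest in cluster 6.

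The share of UMIs from the X chromosome was measured because the rule did not use it. It was 2.70% (2.69 to 2.72) over the 268 cells, 2.66% in Stra8-high cells, 2.26% in low germ cells and 3.61% in Sertoli-gated cells. Of 649 measured X-linked genes 12.3% were at least 2-fold higher than in other germ cells, against 7.28% of 17499 autosomal genes. Against Stra8-high cells the shares were closer, with 10.5% of X-linked and 9.07% of autosomal genes higher, and 19.2% and 19.5% lower. Per 100 autosomal UMIs, the median cell had 2.96 X-linked UMIs in the 268 cells, and cluster 3 had a median of 3.63, above the 2.92 of all other Sycp1-high cells. Cluster 3 also had the widest spread, from 0.139 to 4.88. Of the 268 cells 2 were under 1 X-linked UMI per 100 autosomal, both in cluster 3. The first had 8 X-linked UMIs of 5859 (0.137%, 0.0590 to 0.269), and the second 159 of 61264 (0.260%, 0.221 to 0.303). The second cell held 105 UMIs of Hspa2, 101 of Meig1, 20 of Ldhc, 14 of Adam2, 12 of Piwil1 and 31 of Psma8, and 1 of Psma7. Another cell, at 1.01 per 100 with 53811 UMIs, held 47 of Hspa2 and 41 of Meig1. The lowest of the 232 cells outside cluster 3 was at 1.23, and the lowest Stra8-high cell at 1.42. In the plot of single cells these 3 cells, at 45.3 to 77.7 UMIs of zygotene to pachytene genes per 10000, were among the 4 highest in those genes, and the other one, at 52.9, was at 4.88, the highest X-linked value.

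**Figure D5:**
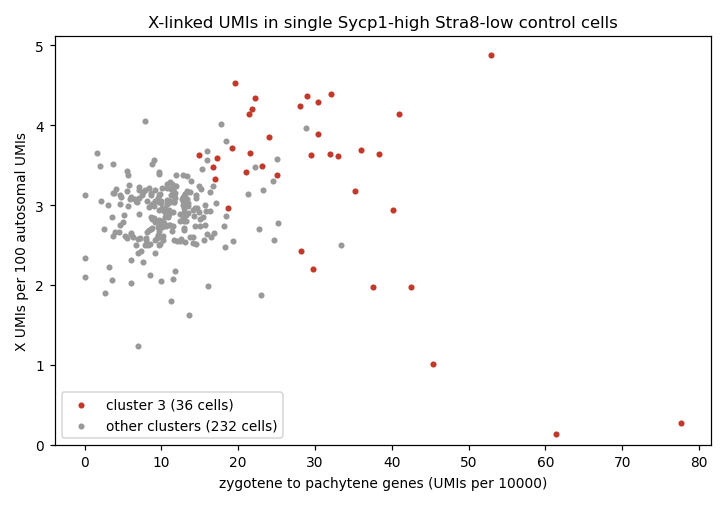
X-linked UMIs per 100 autosomal UMIs against UMIs of 21 autosomal zygotene to pachytene genes per 10000, 1 point per control Sycp1-high Stra8-low cell. Cluster 3 (36 cells) spans 0.139 to 4.88 on the vertical axis and the other 232 cells 1.23 to 4.05.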

How the data were processed

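Whole-testis cells were profiled by 10x 3′ single-cell RNA sequencing, 1 library per genotype. The deposited matrices hold raw UMI counts per gene and barcode, unfiltered, from Cell Ranger 7.1.0 per the file headers and with build mm10 per the submitters' processing notes; the knockout library had 1477364 barcodes and 112746953 UMIs, and the control library 1707157 and 146528736, for 32285 genes each. The authors' cell types are not given in the sources used here, so cells were gated by counts as stated above. Gene positions came from GENCODE M21, which held 32158 of 32285 gene IDs, and promoters from RefSeq on GRCm38.p6.

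UMIs of all cells in a class were added up and divided by the class total (CPM), with exact Poisson intervals, and log2 ratios were taken with 0.5 UMIs added and exact conditional intervals. A gene counted as measured with at least 30 UMIs over both classes, and as higher or lower at 2-fold. Shares of cells have Clopper-Pearson intervals. Limits for counts of 0 were set at 3 UMIs over the group. Clusters of the control Sycp1-high cells used scanpy 1.11.5 and leidenalg 0.10.2 (2000 variable genes, 20 components, 15 neighbours, resolution 0.5), without the genes of the rule and mitochondrially encoded or ribosomal protein genes. Doublets were scored by Scrublet with the threshold of the control, 0.187, for both libraries and were kept. It marked 275 knockout and 495 control cells. Free RNA was estimated from barcodes of 10 to 100 UMIs. The ratio and its interval were tested on simulated data.

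The genes named were those of the rule, the given markers, Psma7, members of the lists on chromosome axis, cohesin, recombination, telomeres, meiotic entry and the 20S α ring, the 3 highest and 3 lowest of each other list, the extremes of the ranking and the 5 genes that lead each cluster. Dmrt1, Egr4, Hspa2, Adam2, Malat1 and the markers counted for clusters 3 and 6 were named after their values were seen. The cells and the gene lists were chosen with earlier results of these data known. The knockout and control libraries were set side by side by the number of cells and by the levels of Psma7 and Psma8, with no test. Some genes of the lists are not reported here by name.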

Additional observations from a re-analysis of the deposited data

How the results depend on the processing

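No paired analysis was possible because each genotype has 1 library and no test was made. The count of 1 knockout cell held under every other gate tried but Sycp1 of at least 40 per 10000, which left 0 knockout and 21 control cells (0.582% of control germ cells), with 3343 genes higher and 5039 lower than in other germ cells. With Stra8 at 0 UMIs 98 control cells were left (2.71%), and with at most 10% of mitochondrially encoded UMIs the share was 8.70%. With at least 100 UMIs per gene 672 genes were higher and 1450 lower than in Stra8-high cells. Centring on the median gene gave 3754 genes higher than in other germ cells. Without mitochondrially encoded and ribosomal protein genes the X-linked share was 2.97%. Without the 6 doublets 262 cells were left. Leaving out clusters 2 and 6, chosen after seeing the data, gave 961 genes higher and 2767 lower than Stra8-high cells. The 2 cells of cluster 3 with most UMIs were left out as an alternative also chosen after seeing the data. Over all alternatives 12 main values moved and 51 did not, and 87 single-gene and list values moved and 165 did not. No ratio past 2-fold went past 2-fold in the opposite direction, but some changed sign or fell under 2-fold. Centred on the median gene, the 20S α median went from -0.21 to 0.47, the 19S median from -0.03 to 0.65 and the S phase median from -0.17 to 0.51. With Stra8 at 0 UMIs, the break formation median fell from 1.21 to 0.04, the telomere median from 1.28 to 0.32 and Dmc1 from 1.72 to 0.81. Of the 36 cells of cluster 3, all 36 stayed together at resolution 1, and 32 did among cells of at least 3000 UMIs. The latter choice itself removed the cells of the cluster with 1852 and 2081 UMIs. The limit is 1 library per genotype, so no spread between animals is known, and the levels of low genes in clusters of 15 to 36 cells rest on few UMIs.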

Other observations

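Genes of cilia and flagella, a list chosen by symbol after values were seen, were often high in the control Sycp1-high cells. Of 59 measured against Stra8-high cells, 29 (49.2%) were at least 2-fold higher and 6 lower, with a median log2 ratio of 0.96, where 9.15% of all genes were higher. Against all other germ cells 27 of 92 (29.3%) were higher and 25 lower, with a median of 0.21, where 7.48% of all genes were higher. The list was not counted by cluster, so what part of it rests on cluster 3 is not known. Rsph1, of the radial spokes, had 417 of its 430 UMIs in the 36 cells of that cluster.

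Few cells outside these had under 1 X-linked UMI per 100 autosomal. The knockout library had 5 such cells among 10864, of which 2 were germ cells, at 0.249 and 0.331, with 0 UMIs of Piwil1, Ldhc, Meig1 and Adam2. The control library had 6 among 11232. Of these, 2 were Sycp1-high cells and 2 were germ cells low in both genes of the rule. One of the last pair, at 0.982 with 58160 UMIs, held 98 UMIs of Sycp1, 69 of Hspa2, 55 of Meig1 and 28 of Psma8.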
